A study of Mus musculus with 2 samples.

Results

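Lysosomal proteases, hydrolases and membrane proteins were examined in small-intestinal organoids given RankL and in organoids left untreated. The set held 37 mouse genes, taken by name as cathepsins, lysosomal hydrolases and lysosomal membrane proteins, out of 32235 genes or accessions with a probe on the arrays. A probe was assigned to a gene through its RefSeq accession. Of the 37 genes, 35 had a matching probe, and Ctse and Cd68 had none. All 35 were measured, meaning that a probe was well above background on both arrays in at least 1 of the RNAs, as were 12877 genes or accessions in all.

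RankL-treated organoids and untreated organoids both came from wild-type mice and were grown from intestinal crypts in a medium supplemented with EGF, R-spondin and Noggin. RankL, the cytokine that signals through its receptor RANK to NF-kB, was added at concentrations between 50 and 200 ng/ml, and medium was renewed on day 2 and day 5. Which dose and harvest time these RNAs represent is not given in the sources used here. Both RNAs were hybridised together to 2 dual-colour arrays on 1 slide, with RankL RNA in the Cy3 channel of array 1 and, after the dye swap, in the Cy5 channel of array 2. The arrays thus hold 1 RNA pair, or 1 replicate per group, so there was no test and no p-value, and the number of arrays limits the precision. The series' title names M cells of Peyer's patches, epithelial cells that take up luminal antigen, as its subject.

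Lysosomes are acidic organelles that break down material from endocytosis, phagocytosis and autophagy. Cathepsins cut proteins, glycosidases and sulfatases take sugars and sulfate groups off glycoproteins and glycolipids, and saposins and related carriers present lipids to their enzymes. Membrane glycoproteins such as Lamp1 and Lamp2 line the organelle, and the vacuolar proton pump acidifies it. In antigen-sampling and antigen-presenting cells, endolysosomal proteases also process internalised proteins and the invariant chain of MHC class II. Many lysosomal promoters carry an E-box element read by the transcription factors Tfeb and Tfe3.

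A minority of the lysosomal genes, led by the protease gene Ctsh, were at least 2-fold higher with RankL. Of the 35 genes, 6 were higher with RankL, 0 were lower and 29 were neither. A gene was called higher or lower when its mean log2 ratio of RankL over untreated reached 1 in size (2-fold) and each array alone reached 0.5 with that sign. The genes called higher were Ctsh, Arsa, Ctsl, Cd63, Lamp1 and Ctsd, which is 17.1% of the lysosomal genes measured, beside 5.47% of all genes measured. In the lower direction the count of 0 stood beside 2.5% of all genes. The median log2 ratio was 0.16 over the 35 genes and 0.0086 over all genes. With the median over probes the lysosomal median was 0.054, beside 0.0015 for all genes. With median centring in place of loess it was 0.066, beside -0.059 for all genes. At a threshold of 1.5-fold, 7 of the 35 were higher and 5 lower, beside 9.7% and 6.02% of all genes. The scanner software's own ratios, at 2-fold, put 6 higher and 2 lower, beside 8.92% and 6.07%.

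Beneath the calls, the genes spread to both sides. A mean log2 ratio of 0.5 or more was seen in 9 of the 35 genes (25.7%), beside 13.2% of all genes, and one of -0.5 or less in 8 (22.9%), beside 9.92% of all genes. The sign was the same on both arrays for 30 genes, of which 18 were above 0 and 12 below. The other 5 genes, whose arrays lay on opposite sides of 0, were Tpp1, Man2b1, Neu1, Arsb and Psap. The SD between arrays, which measures technical error and not the variation among cultures, had a median of 0.14 over the lysosomal genes and a highest value of 0.62, for Glb1.

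**Figure D1:**
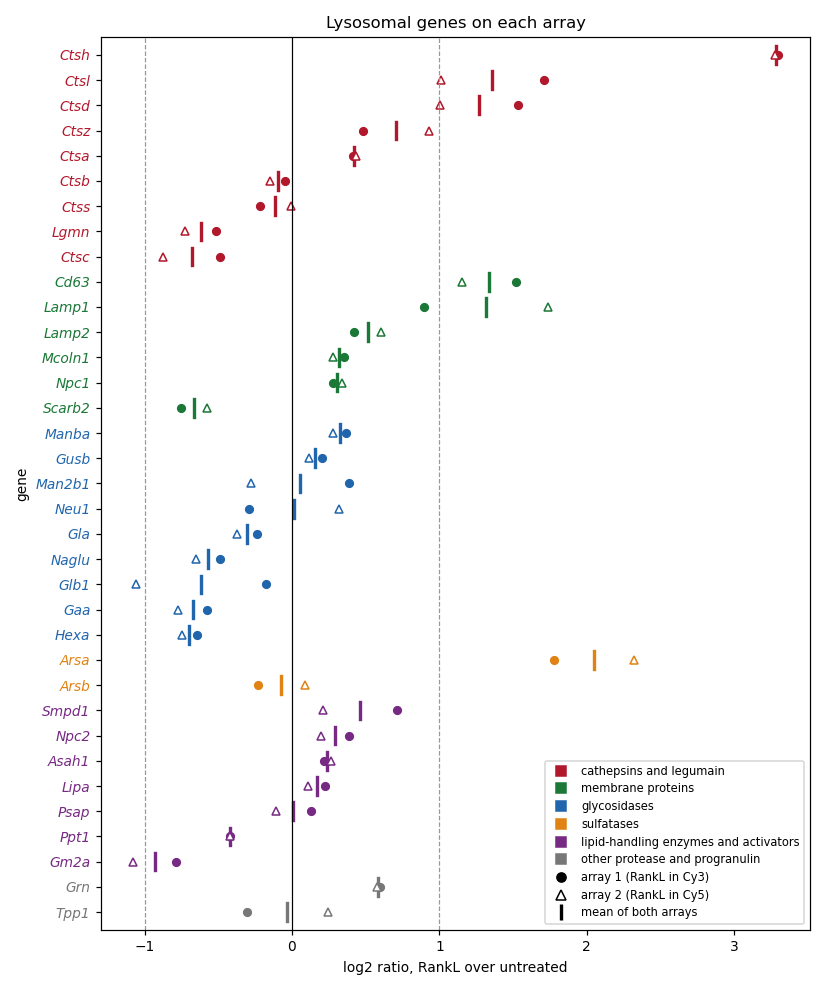
Log2 ratio of RankL over untreated for the 35 lysosomal genes measured, by class, on array 1 (circles), on array 2 (triangles) and as their mean (bars), with dashed lines at a ratio of 1 in size. Ctsh lies at 3.30 and 3.28, apart from the rest, and the 9 glycosidases all have means between -0.69 and 0.33.

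The cathepsins covered the widest range of these classes. Cathepsins and legumain together had 9 measured genes of 10, of which 3 were higher and 6 neither, and the median log2 ratio was 0.42. Ctsh, a cysteine protease with aminopeptidase activity, had log2 intensities of 15.46 and 15.41 in RankL RNA on arrays 1 and 2, against 12.16 and 12.13 in untreated RNA. Its log2 ratio was 3.29 ± 0.014 (SD of the 2 arrays), or 9.76-fold. That ratio was the 53rd from the top among 12877 genes, and both arrays gave nearly the same value. Ctsh is among the genes known from M cells.

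Ctsl and Ctsd were higher by less. Ctsl, the endopeptidase cathepsin L, had log2 intensities of 10.36 and 10.05 in RankL RNA, against 8.66 and 9.03 in untreated RNA, which is a log2 ratio of 1.36 ± 0.49 or 2.57-fold. Ctsd, the main aspartic protease of lysosomes, had 13.03 and 12.79 in RankL RNA, against 11.50 and 11.78 in untreated RNA, which is 1.27 ± 0.37 or 2.41-fold. In both genes the RankL intensities lay above the untreated ones on each array, and array 1 gave the larger ratio. Of the genes called higher, Ctsd was the nearest to the threshold of 1, and its second measured probe read 0.77.

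The other cathepsins did not reach the size rule, and their values lay on both sides of 0. Ctsz, a carboxypeptidase, was the nearest below the threshold, with a log2 ratio of 0.48 on array 1 and 0.93 on array 2 (0.71 ± 0.32). Ctsa, a serine carboxypeptidase that also stabilises Glb1 and Neu1 in a complex, was at 0.42 ± 0.016. Ctsb and Ctss, cysteine proteases, were at -0.098 ± 0.071 and -0.11 ± 0.15, so that the RNAs differed by less than the SD between arrays for Ctss. Ctss is the protease best known for the last cut of the invariant chain.

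Legumain and Ctsc were on the low side. Lgmn, an asparaginyl endopeptidase that activates cathepsins, had log2 intensities of 6.87 and 6.79 in RankL RNA, against 7.39 and 7.51 in untreated RNA, a log2 ratio of -0.62 ± 0.15. Ctsc, the dipeptidyl peptidase that activates granule serine proteases, had 7.86 and 7.85 in RankL RNA, against 8.35 and 8.72 in untreated RNA, a ratio of -0.68 ± 0.27. Neither met the size rule, although the RankL intensity was the lower one on each array. With the scanner software's ratios Lgmn read -1.36 and was called lower.

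**Figure D2:**
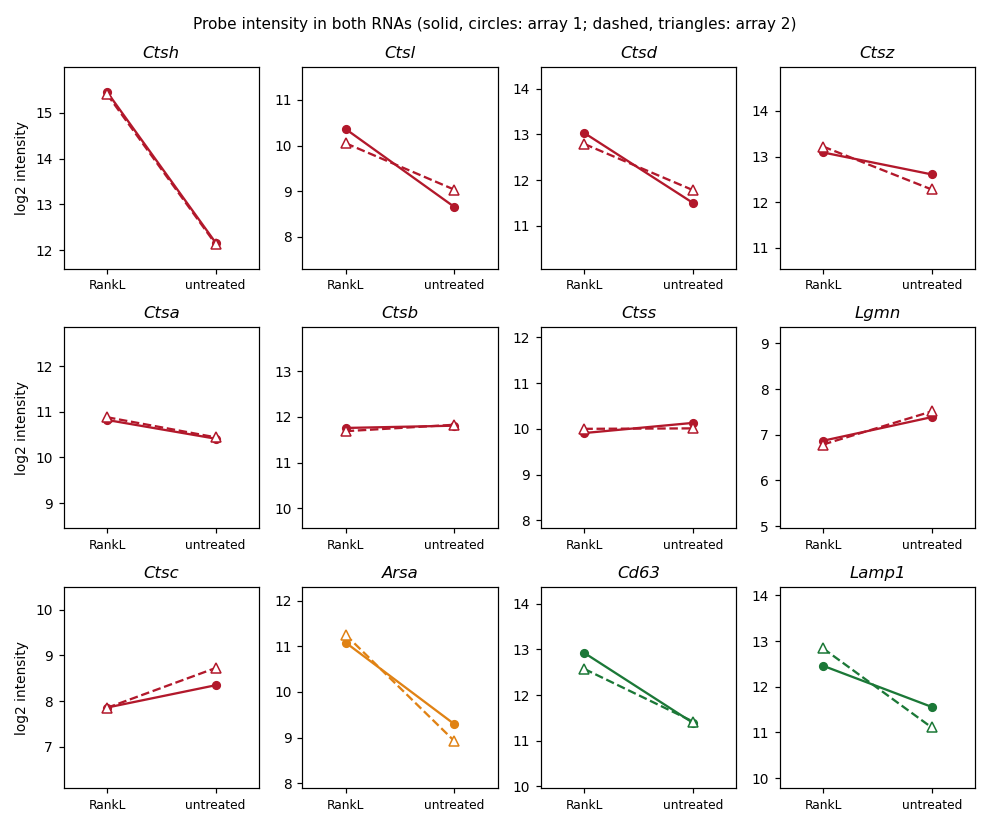
Log2 intensity of the probe of 12 lysosomal genes in RankL RNA (left) and untreated RNA (right) on array 1 (solid, circles) and array 2 (dashed, triangles), after loess and Aquantile normalization. Each panel spans the same log2 range around its own probe. Ctsh has the steepest line, and the lines of Ctsb and Ctss are nearly flat.

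Among membrane proteins, 2 of 6 measured genes were higher and 4 neither, and their median log2 ratio was 0.42. Cd63, a tetraspanin of late endosomes, lysosomes and exosomes, had log2 intensities of 12.92 and 12.57 in RankL RNA, against 11.39 and 11.42 in untreated RNA, which is a log2 ratio of 1.34 ± 0.26 or 2.53-fold. Lamp1, a major glycoprotein of the lysosomal membrane, had 12.46 and 12.84 in RankL RNA, against 11.56 and 11.11 in untreated RNA, which is 1.31 ± 0.59 or 2.49-fold. Lamp1 read 0.89 on array 1 and 1.74 on array 2, so that it fell short of the rule on array 1 alone.

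The remaining membrane proteins were closer to 0. Lamp2, the partner of Lamp1, was at 0.52 ± 0.13, Mcoln1, a lysosomal calcium channel, at 0.32 ± 0.056, and Npc1, which exports cholesterol, at 0.31 ± 0.047. Scarb2, the receptor that carries beta-glucocerebrosidase to lysosomes, was the one membrane protein below 0, at -0.75 on array 1 and -0.58 on array 2. Its second measured probe read -0.63. The class therefore held genes on both sides of 0 that kept their sign on each array.

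Glycosidases had no gene past the size rule in either direction. All 9 were measured, 4 lay above 0 and 5 below, and their median log2 ratio was -0.31. Hexa, the alpha subunit of beta-hexosaminidase A, had log2 intensities of 10.83 and 10.85 in RankL RNA, against 11.47 and 11.59 in untreated RNA, a log2 ratio of -0.69 ± 0.071. Gaa, the glucosidase that degrades glycogen, was at -0.67 ± 0.14, Glb1, a beta-galactosidase, at -0.62 ± 0.62, and Naglu, which acts on heparan sulfate, at -0.57 ± 0.11. Hexa, Gaa and Naglu had close values on both arrays. Glb1 read -0.18 on array 1 and -1.06 on array 2 and would be called lower on array 2 alone. The second measured probe of Glb1 read -0.32.

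The rest of the class lay nearer to 0. Gla, an alpha-galactosidase, was at -0.31 ± 0.094, and Manba, a beta-mannosidase, was the highest at 0.33 ± 0.064. Gusb, a beta-glucuronidase, was at 0.16 ± 0.061. Man2b1, an alpha-mannosidase, and Neu1, a sialidase, were at 0.054 ± 0.47 and 0.013 ± 0.43, with the arrays on opposite sides of 0.

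The median log2 ratio of the cathepsins and legumain exceeded that of the glycosidases by 0.73, by 0.65 on array 1 and 0.81 on array 2. The median of the membrane proteins exceeded that of the glycosidases by 0.72, by 0.63 on array 1 and 0.85 on array 2. Cathepsins and membrane proteins had nearly equal medians, 0.0085 apart, in the setting reported. The scanner software's ratios gave them medians of 0.39 and 0.57, and the median over probes gave 0.52 and 0.35. With 1 RNA pair none of these differences could be tested, and they describe these arrays. Ctsb, Ctss, Lgmn and Ctsc lay within the range of the glycosidases, so the classes overlapped.

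Arsa had the second highest ratio of the 35 genes, after Ctsh. Arsa, the arylsulfatase that removes sulfate from sulfatides, had log2 intensities of 11.08 and 11.25 in RankL RNA, against 9.30 and 8.93 in untreated RNA. Its log2 ratio was 2.05 ± 0.39, or 4.14-fold, with the RNAs well apart on each array. Arsb, the sulfatase of dermatan and chondroitin sulfate, was at -0.071 ± 0.23.

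No enzyme or carrier of lipids was called in the setting reported, although Gm2a among them allows only a bound. Of 7 measured genes, 0 were higher and 0 lower, and the median log2 ratio was 0.17. Smpd1, acid sphingomyelinase, was at 0.46 ± 0.35, Npc2, a soluble cholesterol carrier, at 0.29 ± 0.13, Asah1, acid ceramidase, at 0.24 ± 0.030, and Lipa, the acid lipase, at 0.17 ± 0.083. Psap, the precursor of the saposins, was at 0.010 ± 0.17. Ppt1, a palmitoyl-protein thioesterase, was at -0.42 on each array, while its second measured probe read 0.24.

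Gm2a, which presents a ganglioside to hexosaminidase A, was the gene nearest to the lower threshold, and its RankL signal allows only a bound. It had log2 intensities of 6.38 and 6.30 in RankL RNA, which were not well above background on either array, against 7.17 and 7.38 in untreated RNA. In this setting the mean of both arrays put Gm2a at least 1.91-fold lower with RankL. This bound was computed against the higher of its own RankL signal and the dimmest signal called well above background. Its own was the higher, so the bound equals the measured mean, and array 1 alone read a smaller difference, at -0.79. Values read against this dim signal changed with the treatment of the background, at -0.87 without background subtraction, -0.93 in this setting, -1.36 with a normexp offset of 16 and -2.72 by the scanner software. Those with the offset of 16 and by the scanner software would call it lower, and the one without background subtraction is a smaller difference than the bound.

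Grn and Tpp1 made up the rest. Grn, which encodes the lysosomal and secreted glycoprotein progranulin, was at 0.59 ± 0.015 by its brightest probe, but its second measured probe read -0.66. Of the 12 lysosomal genes with a second measured probe, 5 had probes of opposite sign (Grn, Neu1, Ppt1, Psap and Tpp1), and for Grn both lay beyond 0.5. The second probe read 0.25 for Lamp2 and 0.056 for Manba, below the brightest probe in each case. Tpp1, a tripeptidyl peptidase, was at -0.031 ± 0.39.

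**Figure D3:**
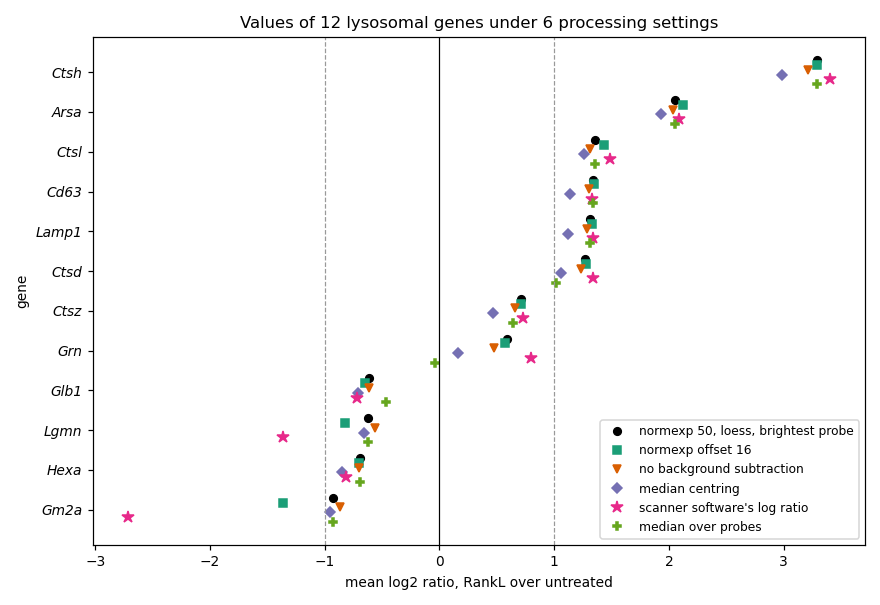
Mean log2 ratio of RankL over untreated for 12 lysosomal genes under 6 processing settings, with dashed lines at a ratio of 1 in size. Ctsh, Arsa, Ctsl, Cd63, Lamp1 and Ctsd lie above 1 under each setting drawn, and Gm2a, whose RankL signal was not above background, ranges from -2.72 to -0.87.

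Promoters were compared because lysosomal genes are known to share the E-box CACGTG, the core of the element read by Tfeb and Tfe3. RefSeq promoter windows on GRCm38.p6, from 250 bases before to 50 after the annotated start, were found for 32 of the 37 genes. Ctsh, the gene with the highest ratio, had no window and was not searched, nor were Ctsb, Ctse, Asah1 and Npc1. The palindrome CACGTG stood in 11 of the 32 (34.4%), beside 8.09% of 27025 genes with a window and 1004 of the 8387 of them that were measured. The longer form TCACGTG, searched on both strands and overlapping the first, stood in 10 of the 32 (31.2%), beside 4.29% of all genes and 7.07% of those measured. The full palindrome TCACGTGA, again an overlapping form, stood in 4 of the 32 (12.5%), beside 1.12% of all genes and 2.29% of those measured. In a second list of lysosomal genes, described further on, CACGTG stood in 7 of 22 windows (31.8%), TCACGTG in 27.3% and TCACGTGA in 22.7%.

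The windows below show the matches that lie nearest the start in the 8 genes with a match whose ratios were beyond 0.5 in size, with CACGTG in capitals, 5′ to 3′ along the gene's strand. Lamp1, Ctsd, Arsa and Ctsl were called higher. Naglu, Glb1, Lgmn and Gaa had ratios below -0.5, which for Glb1 holds by its brightest probe and not by its second. The other genes with a match, Ctsa, Mcoln1 and Gla, had log2 ratios of 0.42, 0.32 and -0.31.
Lamp1: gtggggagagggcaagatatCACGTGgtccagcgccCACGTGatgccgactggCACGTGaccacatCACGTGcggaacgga
Ctsd: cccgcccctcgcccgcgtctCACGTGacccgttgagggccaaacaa
Arsa: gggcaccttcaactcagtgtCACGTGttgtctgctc
Ctsl: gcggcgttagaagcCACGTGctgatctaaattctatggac
Naglu: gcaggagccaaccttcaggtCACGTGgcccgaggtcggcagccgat
Glb1: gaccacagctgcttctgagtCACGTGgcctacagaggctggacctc
Lgmn: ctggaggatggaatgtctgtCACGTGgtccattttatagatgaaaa
Gaa: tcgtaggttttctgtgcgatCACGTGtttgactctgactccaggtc

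These windows lie at chr8:13159080-13159160 (Lamp1, plus strand), chr7:142387900-142387945 (Ctsd, minus), chr15:89477425-89477460 (Arsa, minus) and chr13:64370731-64370770 (Ctsl, minus). Those of the other genes lie at chr11:101070001-101070046 (Naglu, plus), chr9:114401010-114401055 (Glb1, plus), chr12:102439116-102439161 (Lgmn, minus) and chr11:119267803-119267848 (Gaa, plus). All are upstream of the annotated start. Counted from the start, the 4 matches of Lamp1 began at positions -61, -45, -28 and -15, that of Lgmn at -49 and that of Ctsl at -236.

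The E-box was found on both sides of the range. Of the 5 genes called higher that had a window, 4 held CACGTG (80.0%), against 7 of 26 genes (26.9%) that were not called. This difference, with only 5 genes on one side, was not tested. By class it stood in 4 of 7 cathepsins with a window, 4 of 9 glycosidases, 2 of 6 membrane proteins, 1 of 2 sulfatases and 0 of 6 lipid-handling genes. Among all genes called higher, 10.0% of 478 with a window held it. The NF-kB consensus, searched on both strands, stood in 5 of the 32 lysosomal genes (15.6%), namely Grn, Lgmn, Neu1, Psap and Scarb2. Of the 5 genes called higher that had a window, which leaves out Ctsh, 0 held it. The NF-kB consensus stood in 5.14% of all genes with a window, 6.13% of those measured and 11.1% of those called higher. A match describes letters in a window and is not a measured binding site.

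**Figure D4:**
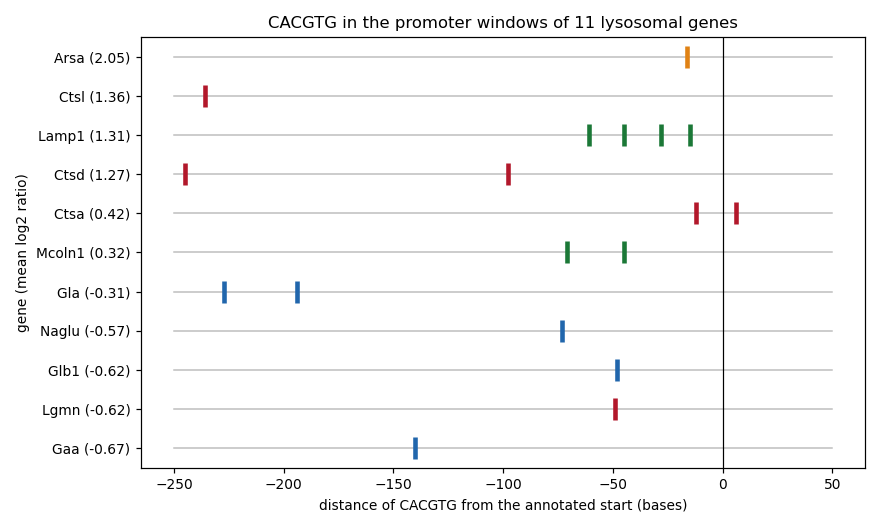
Position of each CACGTG match, in bases from the annotated start, in the promoter windows of the 11 lysosomal genes that hold one, ordered by mean log2 ratio (in brackets). Matches stand in genes from 2.05 (Arsa) to -0.67 (Gaa).

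A second list of 32 lysosomal enzymes and membrane proteins outside the set gave 0 higher of 26 measured, with a median log2 ratio of 0.031. The share higher among all genes was 5.47%. The highest was Laptm4b, a transmembrane protein of late endosomes, at 0.83 ± 0.37. Ctsk, the cathepsin of osteoclasts, had a probe but was not measured.

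The vacuolar proton pump, which acidifies the lysosome, had a median of 0.42 over 16 measured subunits and accessory proteins, 13 of them above 0. With the median over probes it was 0.28. A second measured probe read lower than the brightest for Atp6v1a (0.064), Atp6v1e1 (0.087), Atp6v1f (0.055), Atp6v1g1 (0.039) and Atp6v1h (-0.055). Atp6v1c1, a subunit of the cytosolic sector, was called higher at 1.18 ± 0.053 and 15 were neither. The share called higher, 6.25%, is close to the 5.47% of all genes. Atp6v0c, the proteolipid of the membrane sector, was at 1.00 ± 0.53, just short of the threshold.

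Cystatins, the inhibitors of cysteine cathepsins, were measured for 3 of 8 genes, of which 2 were higher. Of all genes, 5.47% were higher. Cst6, cystatin M, whose human form inhibits legumain and cathepsin L, had log2 intensities of 11.81 and 11.61 in RankL RNA, against 9.30 and 9.18 in untreated RNA, a ratio of 2.47 ± 0.052. Cstb, a cytosolic inhibitor, was at 1.06 ± 0.14 and read 0.64 by a second probe. The secreted inhibitor Cst3 was at -0.33. Ctsl and Lgmn themselves were at 1.36 and -0.62.

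Among 17 measured genes of endosome and lysosome fusion, 3 were higher and 14 neither, and the median was 0.25. The 3 are 17.65% of the list, beside 5.47% of all genes. Rab32, a small GTPase of lysosome-related organelles, had log2 intensities of 10.98 and 10.94 in RankL RNA, against 7.41 and 7.38 in untreated RNA, a ratio of 3.57 ± 0.0085. Vamp8, a SNARE of late endosomes, was at 1.65 ± 0.16 and read 1.84 by a second probe. Vps18, a subunit of the HOPS tethering complex, was at 1.34 ± 0.44 but read 0.27 by a second probe. Of 15 autophagy genes, Uvrag was higher at 1.37 ± 0.074 and 14 were neither (median 0.41). That share of 6.67% is close to the 5.47% of all genes.

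Genes that deliver and regulate lysosomal proteins met the size rule in no case, beside 5.47% higher and 2.5% lower among all genes. The 15 measured sorting genes had a median of 0.056, with Igf2r, the cation-independent mannose 6-phosphate receptor, the lowest at -0.75 ± 0.14 and Ap1m1, a subunit of the AP-1 clathrin adaptor, the highest at 0.90 ± 0.25. The 10 measured genes of the MiT/TFE factors and of the Rag and Ragulator proteins that control them had a median of 0.041, with Tfe3 at 0.30 ± 0.065. Tfeb, Mitf and Tfec had probes but were not measured.

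**Figure D5:**
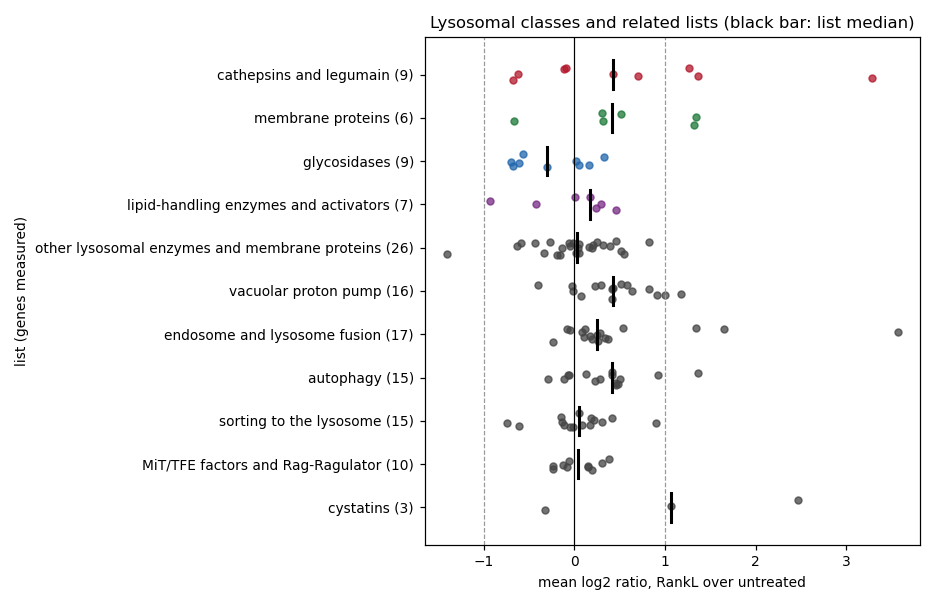
Mean log2 ratio of RankL over untreated of each measured gene in 4 classes of lysosomal genes (coloured) and 7 related lists (grey), with list medians as black bars and dashed lines at a ratio of 1 in size. Medians run from -0.31 for glycosidases to 1.06 for the 3 measured cystatins, and single genes stand far out at 3.29 (Ctsh) and 3.57 (Rab32).

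Signals of 38.3% and 43.4% of spots were well above background for RankL RNA, against 39.6% and 40.1% for untreated RNA, on arrays 1 and 2. Of all genes, 704 were higher and 322 lower. All 7 epithelial markers (Epcam, Vil1, Cdh1, Krt8, Krt18, Krt19 and Cldn7) were above background in both RNAs. Their summed linear intensity was 146600 and 142400 in RankL RNA, against 174000 and 145100 in untreated RNA, with Vil1 at 0.81 and Krt18 at -0.92, and none was called. The RNA came from whole organoids, in which more cells of a type and more RNA per cell cannot be told apart.

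Several lysosomal genes are strongly expressed in macrophages, so leukocyte markers are given beside them. Of 15 markers, 3 were above background in RankL RNA and 2 in untreated RNA on both arrays. Summed over all 15, most of them not above background, the linear intensity was 1669 and 1591 in RankL RNA, against 1326 and 1272 in untreated RNA. Ptprc, Csf1r, Adgre1, Tyrobp and Lyz2 were among the 11 that were not well above background in either RNA on either array. Cd14, which epithelium can also express, was the one called higher, at 1.21 ± 0.22. The other measured leukocyte markers, Fcer1g and Coro1a, were at -0.014 ± 0.25 and 0.50 ± 0.016. Coro1a was above background in untreated RNA on 1 array only, and another measured probe of it read 0.76. Of 8 stromal markers, 4 were measured and none was called. The summed intensity of all 8 was 2660 and 2626 in RankL RNA, against 1898 and 1913 in untreated RNA. Acta2, the brightest of the 4, was at 0.62 ± 0.036, but another measured probe of it read -0.087. Col1a2 was at 0.17 and Vim at -0.067. Pdgfrb was at 0.90, with untreated signals not above background. The 6 M cell markers (Spib, Gp2, Ccl9, Tnfaip2, Anxa5 and Sox8) were all called higher, beside 5.47% of all genes. They were chosen with earlier results of these data known, so their count is not independent of these data. Their summed intensities were 55320 and 57230 in RankL RNA, against 2507 and 1941 in untreated RNA. Sox8 was not above background in untreated RNA, which leaves a bound of at least 5.22-fold. The part of any of these cell types in the lysosomal values was not tested.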

How the data were processed

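Total RNA was measured on dual-colour Agilent arrays. The deposited intensity values, median pixel brightness of spot and local background, were made by Feature Extraction 10.5.1.1 (8.5.1.1 in the submitters' processing notes) on a design annotated to mm9, per the file headers. The deposited log10 ratios were background-subtracted and dye-normalized there, per the file headers. The authors' series matrix holds the same log10 ratios as RankL over untreated (largest difference 5.0e-06, column medians 0). Spot flags are 0 or 1, per the file headers.

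Median spot signals were corrected with their median local background by normexp (offset 50) and loess in limma 3.58.1 under R 4.3.3, with the 1639 control spots at weight 0. Control spots and 170 and 164 outlier spots were dropped; none was saturated. Spots of a probe were averaged, both arrays turned to RankL over untreated and averaged as 1 replicate. A gene took its brightest measured probe. Names came from RefSeq accessions of GRCm38.p6 (26918 of 41174 probes). Intensities printed per RNA are after Aquantile. The procedure was tested on simulated data. Members, lists and the size rule were chosen with earlier results of these data known. Values per array were given for the lysosomal genes that met the size rule and those nearest the threshold. Most other genes named, Ctsa, Ctsb and Ctss among them, were given by mean and SD. The SD is of 2 arrays of 1 RNA pair and covers technical error only. One gene of the related lists is not reported here.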

Additional observations from a re-analysis of the deposited data

How the results depend on the processing

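The 6 genes called higher kept their calls with a normexp offset of 16, without background subtraction, with median centring, with the scanner software's ratios, with either filter on dim probes and with the median over probes. On array 1 alone 5 of the 6 remained, Lamp1 being the exception. The count of lysosomal genes lower, 0 in the setting reported, was 1 with an offset of 16 (Gm2a), 2 with the scanner software's ratios (Lgmn and Gm2a), from 0 to 2 on single arrays (Glb1 and Gm2a on array 2) and 5 at a threshold of 1.5-fold. That threshold gave 7 lysosomal genes higher, Grn being added, beside 1249 of all genes higher and 775 lower, against 704 and 322 at 2-fold. The scanner software's ratios gave 1148 and 781 of all genes, a glycosidase median of -0.60 and a membrane protein median of 0.57. The cystatin median was 0.086 without the filter on dim probes and 0.85 with the median over probes. The cause of these shifts was not tested. Other list medians moved by less than the SD between arrays of their genes, among them that of the 35 genes, which ran from 0.054 (median over probes) to 0.22 (array 1 alone). No paired analysis was possible because the arrays hold 1 RNA pair, already compared within each array. The RankL signal of Gm2a was not above background, which leaves only a bound, and the dim probes of Gm2a, Lgmn and Npc1 moved away from 0 with the offset of 16 (-1.36, -0.82 and 0.44) and with the scanner software's ratios (-2.72, -1.36 and 0.67).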
